A study of Mus musculus with 20 samples.

Results

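The 10 genes C1qa, C1qb, C1qc, Cd68, Csf1r, Adgre1, Mrc1, Cd163, Lyz2 and Ccr2, which mark macrophages, were followed across mouse left ventricles that differed in cardiac ACC2 and in diet. They were found by gene symbol, and all 10 are among the 25052 genes of the tables and among the 12775 genes tested. The ventricles came from 20 male mice in 4 groups of 5. Acacb, which encodes the acetyl-CoA carboxylase ACC2, was floxed in every mouse (ACC2 f/f). The iKO mice also carried MerCreMer (MCM+), a Cre recombinase that tamoxifen activates, and their littermates, labelled WT, did not, so the WT mice did not have unmodified Acacb. The promoter that drives the Cre is not given in the sources used here. Mice of both genotypes were injected with tamoxifen at 8 weeks of age, at 20 mg/kg for 5 days. Feeding of a high-fat diet (HFD; D12492) or chow began 4 weeks after the last injection and lasted 16 weeks. The groups are thus iKO on HFD, WT on HFD, iKO on chow and WT on chow. Mice with the Cre and without floxed alleles were not analysed here, so loss of ACC2 and presence of the Cre cannot be told apart.

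Macrophages are phagocytes that live in every tissue, and in the heart they take up dying cells and debris from cardiomyocytes, help electrical conduction and respond to injury. Most macrophages of the undisturbed heart renew themselves locally, while blood monocytes that carry the chemokine receptor CCR2 enter it and replenish a further population. Their survival depends on the receptor CSF1R and its ligands CSF1 and IL-34. They are also the main source of C1q, the molecule that starts the classical complement cascade. The labels' comparison of genotypes and diets asks how ACC2 loss and high-fat feeding shape the ventricular transcriptome.

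Values are FPKM, fragments per kilobase of transcript and per M fragments, which can be compared between genes. Fold changes are differences of log2(FPKM + 1), a scale that shrinks changes of genes near 1 FPKM. Each mouse gave 1 library, numbered RT1 to RT20. Depth was estimated from the step that 1 read makes in low values, with weak support in some libraries, and gave 12.5 M reads for the shallowest library, RT7 of iKO on chow, and 31.9 M for the deepest, RT18 of WT on HFD. The members rested on an estimated 54 to 169 reads a library for Cd68, 84 to 232 for Ccr2 and 1728 to 4430 for Lyz2. Acacb stood at 10.6 ± 1.13 FPKM in the iKO HFD group, 37.8 ± 2.93 in the WT HFD group, 8.95 ± 0.464 in the iKO chow group and 38.6 ± 1.57 in the WT chow group (SD, n = 5 each), and the genotypes did not overlap. Libraries RT1 (WT on chow) and RT4 (iKO on chow) held atrial transcripts, with 145 and 30.8 FPKM of the atrial light chain Myl7, which stayed at 2.88 or less elsewhere. Every HFD library has a number above 10 and every chow library one of 10 or below. The labels name no batch, so diet and the order of numbering cannot be told apart.

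The tissue is labelled heart, and all 10 members were at 0.5 FPKM or above in 20 of 20 libraries. Markers of other blood cells were unequal. The T cell gene Cd3e reached at most 0.36 FPKM, the dendritic cell gene Flt3 0.12, the neutrophil chemokine receptor Cxcr2 0.16 and the inflammatory monocyte gene Ly6c2 0.6 in any library. The B cell gene Cd79b, the 1 of 13 lymphocyte markers that was tested, reached 1.0 FPKM. The dendritic cell gene Clec9a reached 1.21 FPKM and the neutrophil gene S100a8 3.76, where Ccr2 reached 1.74. The 5 tested erythroid markers, 4 globin genes and Alas2, summed to 1610 to 3060 FPKM in a library. The fat cell hormone gene Adipoq reached at most 0.53 FPKM. In bulk tissue, fewer macrophages and less RNA per macrophage cannot be told apart.

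Lyz2, which encodes the antibacterial enzyme lysozyme of macrophages and other myeloid cells, had the highest level of the 10 genes, with a mean of 102 FPKM over 20 libraries. The 3 chains of C1q followed, C1qa at 27.4, C1qb at 26.2 and C1qc at 20.0 FPKM. Csf1r averaged 7.56 FPKM, Cd163 6.14, Mrc1 5.44, Cd68 3.86, Adgre1 3.09 and Ccr2 1.09. In this order the ranges over the 20 libraries stood apart at 3 steps, between Lyz2 and C1qa, between C1qc and Csf1r and between Adgre1 and Ccr2. The other neighbours had overlapping ranges, although C1qb exceeded C1qc in 20 of 20 libraries. C1qa exceeded C1qb in 16 of 20, Csf1r exceeded Cd163 in 15, Cd163 exceeded Mrc1 in 14, Mrc1 exceeded Cd68 in 19 and Cd68 exceeded Adgre1 in 17. Lyz2 has a near-identical neighbour, Lyz1, a lysozyme of the gut, that stood at 1.26 FPKM or less in every library, and reads may be split between the 2 genes.

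The 3 C1q genes lie side by side on the minus strand of chromosome 4 in the GRCm38 build, C1qb at 136880129 to 136886187, C1qc at 136889804 to 136893065 and C1qa at 136895917 to 136898803. All 3 code for proteins, as do the other members. Cd68 lies on chromosome 11 (69664213 to 69666153), Mrc1 on chromosome 2 (14229392 to 14332057) and Cd163 on chromosome 6 (124304656 to 124330527). Lyz2 lies on chromosome 10 (117277331 to 117282321), Ccr2 on chromosome 9 (124101950 to 124113557) and Adgre1 on chromosome 17 (57358691 to 57483527).

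Macrophage genes are classically driven by the factor PU.1, whose binding sites hold the letters GAGGAA. The 250 bases before the start of 6 members are shown, the 4 that hold these letters and 2 that do not. C1qb, C1qc, Cd68, Mrc1 and Lyz2 were correlated with each other across libraries and Cd163 with none of them, as described further on. They are from RefSeq on build GRCm38.p6, read 5′ to 3′ on the gene's own strand, with GAGGAA or its complement TTCCTC in capitals. The windows are chr4:136886201-136886450 (minus strand) for C1qb, chr4:136892915-136893164 (minus) for C1qc, chr11:69666171-69666420 (minus) for Cd68, chr2:14229164-14229413 (plus) for Mrc1, chr10:117282273-117282522 (minus) for Lyz2 and chr6:124304401-124304650 (plus) for Cd163. They end just before the start that RefSeq gives, which differs from the start in the gene spans printed above, and those of C1qc, Mrc1 and Lyz2 reach into those spans.
C1qb: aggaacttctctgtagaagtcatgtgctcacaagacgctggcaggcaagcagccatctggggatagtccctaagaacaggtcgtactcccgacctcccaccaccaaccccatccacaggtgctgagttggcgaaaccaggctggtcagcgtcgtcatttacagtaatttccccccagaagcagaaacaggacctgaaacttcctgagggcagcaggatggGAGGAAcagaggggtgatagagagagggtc
C1qc: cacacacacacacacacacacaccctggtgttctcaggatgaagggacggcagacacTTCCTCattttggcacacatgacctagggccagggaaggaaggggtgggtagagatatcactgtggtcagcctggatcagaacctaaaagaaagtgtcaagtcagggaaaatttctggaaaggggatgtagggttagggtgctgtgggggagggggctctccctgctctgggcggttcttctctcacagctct
Cd68: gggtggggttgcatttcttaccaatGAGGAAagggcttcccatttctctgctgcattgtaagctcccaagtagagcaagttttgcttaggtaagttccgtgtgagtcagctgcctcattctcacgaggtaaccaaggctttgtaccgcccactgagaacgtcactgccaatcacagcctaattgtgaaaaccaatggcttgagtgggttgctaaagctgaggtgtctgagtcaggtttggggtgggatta
Mrc1: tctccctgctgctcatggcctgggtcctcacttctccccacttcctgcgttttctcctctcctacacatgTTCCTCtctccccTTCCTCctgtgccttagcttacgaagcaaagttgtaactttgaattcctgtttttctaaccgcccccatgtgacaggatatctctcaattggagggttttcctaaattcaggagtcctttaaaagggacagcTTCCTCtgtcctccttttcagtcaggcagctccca
Lyz2: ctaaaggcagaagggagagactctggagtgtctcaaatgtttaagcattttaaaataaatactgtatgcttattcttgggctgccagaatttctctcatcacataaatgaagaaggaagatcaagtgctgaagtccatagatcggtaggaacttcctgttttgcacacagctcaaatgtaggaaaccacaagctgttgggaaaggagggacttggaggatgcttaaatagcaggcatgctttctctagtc
Cd163: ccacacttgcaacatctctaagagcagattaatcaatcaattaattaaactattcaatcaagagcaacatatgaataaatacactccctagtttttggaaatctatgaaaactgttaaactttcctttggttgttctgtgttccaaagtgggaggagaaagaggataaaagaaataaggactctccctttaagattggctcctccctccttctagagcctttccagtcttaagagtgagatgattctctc

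The letters began 30 bases before the RefSeq start in C1qb, 193 bases before it in C1qc and 225 bases before it in Cd68. Mrc1 held them at 3 places, 180, 167 and 35 bases before its start. They were in none of the windows of Lyz2, Cd163 and Ccr2, although Lyz2 was correlated across libraries with each of the 4 genes that hold them. C1qa, Csf1r and Adgre1 were not searched. Thus 4 of the 7 members searched held the letters, against 23.3% of 32851 windows of that length. A match of letters is not a binding site, and a window without them says nothing of the factor.

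The C1q chains form the recognition molecule of the classical complement pathway, and all 3 are needed to build it. C1qa stood at 20.9, 30.7, 27.9, 31.3 and 25.2 FPKM in the iKO HFD libraries RT11, RT13, RT15, RT17 and RT20, against 27.2, 26.7, 20.6, 25.6 and 26.4 in the WT HFD libraries RT12, RT14, RT16, RT18 and RT19. It stood at 35.4, 40.4, 22.9, 34.8 and 23.2 FPKM in the iKO chow libraries RT2, RT4, RT6, RT7 and RT9, against 26.7, 22.2, 27.2, 25.3 and 26.7 in the WT chow libraries RT1, RT3, RT5, RT8 and RT10. On chow RT2, RT4 and RT7 lay above all 5 WT libraries, while RT6 and RT9 lay within their range. On HFD RT13, RT15 and RT17 lay above all 5 WT libraries and RT11 and RT20 within their range. C1qb stood, in the same order of libraries, at 18.9, 28.1, 26.9, 30.8 and 23.5 FPKM in iKO on HFD and at 24.1, 25.8, 19.9, 23.4 and 25.9 in WT on HFD. It stood at 31.9, 37.9, 23.0, 35.96 and 22.4 FPKM in iKO on chow and at 27.4, 25.5, 25.9, 23.5 and 23.5 in WT on chow. The same 3 iKO chow libraries were high. C1qc stood at 14.50, 22.6, 21.3, 23.0 and 16.4 FPKM in iKO on HFD and at 18.3, 18.4, 14.3, 18.97 and 18.4 in WT on HFD. It stood at 25.1, 32.0, 20.4, 27.3 and 17.1 FPKM in iKO on chow and at 18.5, 17.2, 19.8, 18.6 and 17.7 in WT on chow. Here 4 of 5 iKO chow libraries lay above every WT chow library and RT9 lay below them all.

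Lyz2 stood at 67.6, 108, 97.0, 117 and 76.2 FPKM in iKO on HFD, against 84.2, 93.1, 70.8, 80.5 and 75.9 in WT on HFD. It stood at 150, 151, 101, 131 and 102 FPKM in iKO on chow, against 118, 101, 101, 108 and 99.4 in WT on chow. All 5 WT HFD libraries were below all 5 WT chow libraries, and in iKO the 2 diets overlapped only through RT13 and RT17 on the HFD side and RT6 and RT9 on the chow side.

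Csf1r encodes the receptor for CSF1 and IL-34 that keeps macrophages alive. It stood at 5.75, 7.86, 8.83, 9.47 and 5.83 FPKM in iKO on HFD and at 7.25, 7.13, 5.87, 6.42 and 6.57 in WT on HFD. It stood at 9.66, 10.1, 7.20, 9.10 and 6.65 FPKM in iKO on chow and at 7.20, 7.99, 7.45, 7.94 and 6.96 in WT on chow. The iKO values fell on both sides of the WT ones on either diet. Adgre1, the gene of the surface receptor F4/80 by which mouse macrophages are stained, stood at 2.39, 3.87, 2.96, 4.15 and 2.39 FPKM in iKO on HFD and at 2.48, 3.0, 2.47, 2.54 and 2.47 in WT on HFD. It stood at 4.13, 4.33, 2.64, 3.88 and 2.71 FPKM in iKO on chow and at 3.11, 3.34, 2.98, 2.81 and 3.09 in WT on chow. Again RT2, RT4 and RT7 were above all WT chow libraries and RT6 and RT9 below them all. Cd68, the gene of a lysosomal membrane protein of phagocytes, stood at 2.29, 4.53, 4.90, 4.08 and 3.36 FPKM in iKO on HFD and at 3.27, 2.84, 2.83, 3.19 and 2.98 in WT on HFD. It stood at 5.50, 6.20, 3.26, 5.58 and 3.82 FPKM in iKO on chow and at 5.04, 3.61, 3.24, 3.67 and 3.11 in WT on chow. On HFD 4 of 5 iKO libraries exceeded every WT library, and RT11 lay below them all.

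Mrc1 and Cd163 encode scavenging receptors of resident macrophages, the mannose receptor CD206 and the receptor for haptoglobin-bound haemoglobin. Mrc1 stood at 5.33, 6.66, 7.18, 7.75 and 4.71 FPKM in iKO on HFD and at 5.32, 6.05, 4.21, 5.04 and 4.02 in WT on HFD. It stood at 6.03, 6.80, 5.20, 5.16 and 4.88 FPKM in iKO on chow and at 5.57, 4.79, 4.59, 5.04 and 4.47 in WT on chow. Its highest libraries were RT17 and RT15 of iKO on HFD, followed by RT4 of iKO on chow and RT13 of iKO on HFD. Cd163 stood at 6.84, 9.37, 6.59, 6.28 and 5.10 FPKM in iKO on HFD and at 7.40, 6.48, 4.41, 5.96 and 4.75 in WT on HFD. It stood at 4.58, 5.28, 7.28, 8.05 and 7.40 FPKM in iKO on chow and at 4.94, 5.88, 6.43, 6.02 and 3.74 in WT on chow. Its order within iKO on chow differed from that of the C1q genes: RT6 and RT9, low for C1q, were among the 3 highest, and RT2 was the lowest.

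Ccr2, the receptor by which monocytes follow the chemokine CCL2 into tissue, stood at 1.22, 1.02, 0.72, 0.94 and 0.91 FPKM in iKO on HFD and at 1.05, 1.03, 1.22, 1.29 and 0.85 in WT on HFD. It stood at 0.72, 1.33, 0.95, 1.74 and 1.0 FPKM in iKO on chow and at 1.58, 0.86, 1.06, 0.96 and 1.41 in WT on chow. All 4 groups overlapped throughout.

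**Figure D1:**
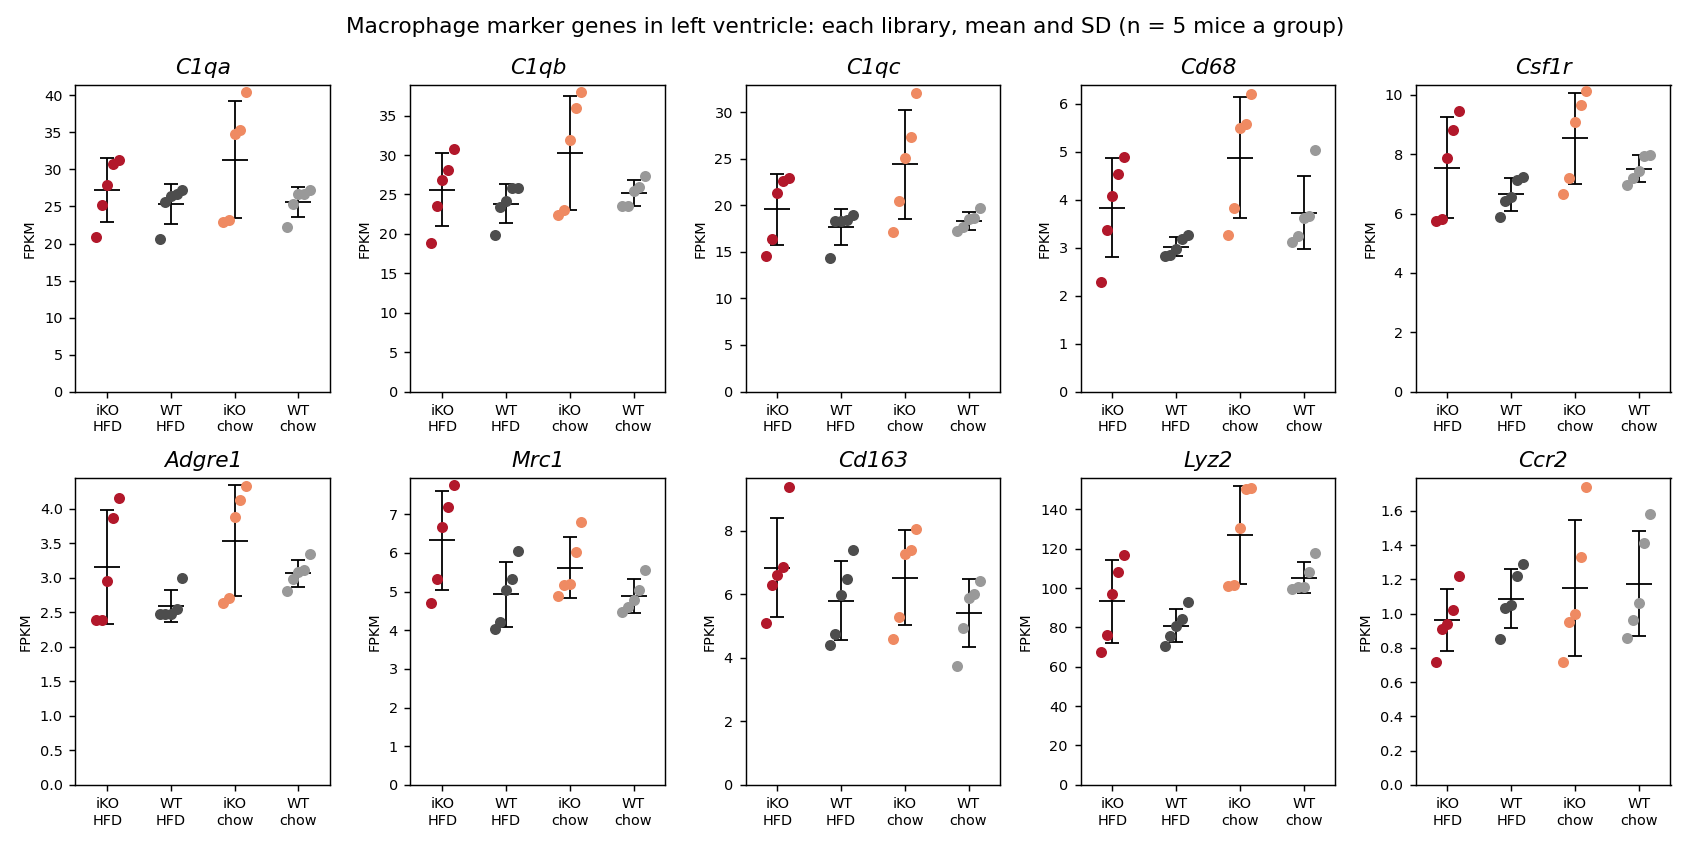
FPKM of each of the 10 genes (vertical axis, from 0) in each library (points), by group, with the mean and SD of 5 mice. The iKO points are more widely spread than the WT points of the same diet, though only slightly for Cd163 and, on HFD, Ccr2. Lyz2 is lower on HFD than on chow.

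Between genotypes on HFD none of the 10 members passed the test (limma, Benjamini-Hochberg over all genes, adjusted p under 0.05), where 0.172% of all genes tested did. Mrc1 averaged 6.33 ± 1.27 FPKM in iKO on HFD and 4.93 ± 0.831 in WT on HFD (SD, n = 5 each), a log2 fold change of 0.30 (SE 0.11, limma adjusted p = 0.242), and was the only member with an unadjusted p under 0.05, as had 15.2% of all genes. Of the members 9 were above 0 and Ccr2 below it, from -0.09 for Ccr2 to 0.30 for Mrc1, with a median of 0.16. Among all genes 74.4% were above 0 and the median was 0.06.

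Between genotypes on chow none of the 10 passed either, where 1.06% of all genes did. C1qc averaged 24.4 ± 5.83 FPKM in iKO on chow and 18.4 ± 0.966 in WT on chow, a log2 fold change of 0.36 (SE 0.14, limma adjusted p = 0.264), and was the only member there with an unadjusted p under 0.05, as had 13.5% of all genes. Cd68 averaged 4.87 ± 1.26 FPKM in iKO on chow and 3.73 ± 0.768 in WT on chow (0.30, SE 0.15, adjusted p = 0.399). Here too 9 members were above 0, the lowest of them Adgre1 at 0.14, and Ccr2 stood at -0.02, with a median of 0.23 over all 10, against 70.8% of all genes above 0 and a median of 0.05. Without RT4, which held atrial transcripts, and RT7, the shallowest library, C1qc stood at 0.16 (adjusted p = 0.803) and Cd68 at 0.12.

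Taking the mean of both diets, which uses 10 mice a genotype, none of the 10 passed, where 5.17% of all genes did (4.01% higher and 1.16% lower in iKO). The members' log2 fold changes were 0.27 for Cd68 (SE 0.11, adjusted p = 0.132), 0.24 for C1qc (SE 0.10, adjusted p = 0.139), 0.23 for Mrc1 (SE 0.08, adjusted p = 0.0842), 0.21 for Cd163 and 0.21 for Lyz2. C1qa stood at 0.17, Adgre1 at 0.16, C1qb at 0.16, Csf1r at 0.15 and Ccr2 at -0.06. Of these Cd68, C1qc, Mrc1 and Lyz2 had an unadjusted p under 0.05, as did 25.1% of all genes. The median of the members was 0.19 and that of all genes 0.06. The 95% interval of Mrc1 ran from 0.07 to 0.39 and that of Ccr2 from -0.22 to 0.11. Leaving out RT11 alone brought Cd68 past the threshold (0.33, adjusted p = 0.0348), and leaving out RT20 alone brought Mrc1 past it (0.27, adjusted p = 0.0341). After scaling by the median of ratios, the counts of all genes called became 99 higher and 280 lower, in place of 512 and 148, and 9 members were still above 0.

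**Figure D2:**
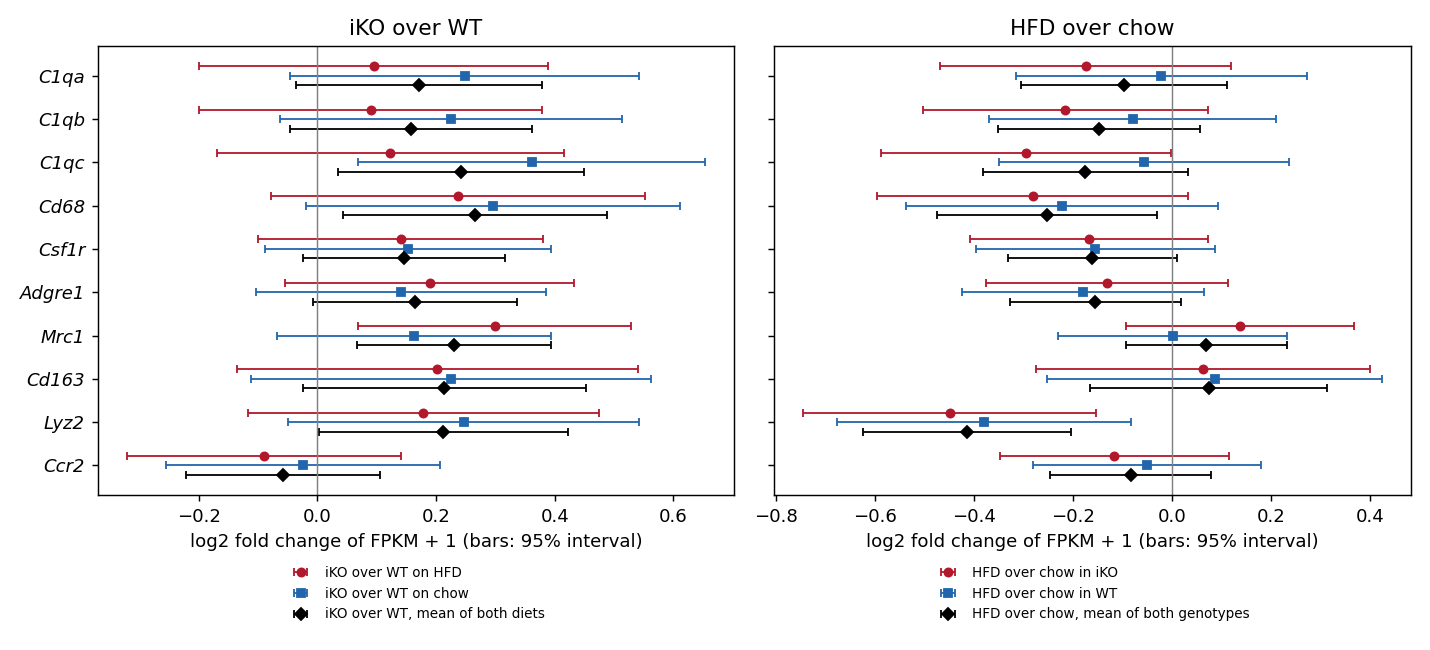
Log2 fold change of FPKM + 1 for each gene (horizontal axis) with its 95% interval (bars), iKO over WT at left and HFD over chow at right. Intervals of most genes cross 0, 9 of 10 genotype estimates are above 0, and Lyz2 lies lowest in the diet comparison.

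The diet comparison gave the 1 call among the members. Lyz2 fell on HFD taken over both genotypes, by 0.42 on the log2 scale (SE 0.10, limma adjusted p = 0.00568), which is a ratio of 0.75. It averaged 93.2 ± 20.9 FPKM in iKO on HFD, 80.9 ± 8.49 in WT on HFD, 127 ± 24.8 in iKO on chow and 105 ± 7.71 in WT on chow. This was 1 of 10 members called lower, where 23.3% of all genes were called lower and 2.55% higher. The direction held without RT1 and RT4 (-0.36, adjusted p = 0.0234) and after scaling by the median of ratios (-0.32, adjusted p = 0.0194), which changed the calls over all genes to 689 higher and 632 lower from 326 and 2973. Over the 27 alternatives the highest adjusted p of Lyz2 was 0.0287.

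Within WT, Lyz2 stood at -0.38 for HFD over chow (SE 0.14, adjusted p = 0.0993), with groups that did not overlap, as in 9.99% of all genes in that direction. A fit to the 2 WT groups alone gave adjusted p = 0.00551. Within iKO it stood at -0.45 (SE 0.14, adjusted p = 0.0508), which passed without RT6 (0.0282), RT9 (0.0283), RT13 (0.0449) or RT17 (0.0214). None of the 10 members passed in either genotype, where 7.27% of all genes were called lower in WT and 8.36% in iKO. The unadjusted p was under 0.05 for Lyz2 in WT, and for Lyz2 and C1qc in iKO, as it was for 25.6% of all genes in WT and 25.7% in iKO.

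The 9 other members showed smaller diet differences. Taken over both genotypes Cd68 stood at -0.25 (SE 0.11, adjusted p = 0.0861) and passed without RT6 alone (-0.31, adjusted p = 0.0285). C1qc stood at -0.18, Csf1r at -0.16, Adgre1 at -0.16, C1qb at -0.15, C1qa at -0.10 and Ccr2 at -0.08. The resident scavenger receptors stood on the other side of 0, Cd163 at 0.07 (95% interval -0.17 to 0.31) and Mrc1 at 0.07 (-0.09 to 0.23). The members' median was -0.15 beside -0.08 for all genes, of which 20.6% were above 0.

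Lysozyme is also made by neutrophils, so their markers were set beside Lyz2. The 4 tested neutrophil markers summed to 2.15 to 5.29 FPKM in iKO on HFD, 3.64 to 6.54 in WT on HFD, 4.11 to 8.0 in iKO on chow and 3.75 to 9.61 in WT on chow. The alarmin gene S100a8 averaged 0.958 ± 0.742 FPKM in iKO on HFD, 1.22 ± 0.276 in WT on HFD, 1.79 ± 0.657 in iKO on chow and 1.85 ± 1.10 in WT on chow. Its diet difference was -0.43 (SE 0.17, adjusted p = 0.0775), and 3 of the 4 markers were below 0 with none called. The granule genes Camp and Mmp8 reached at most 0.05 and 0.07 FPKM in any library. Their part in the Lyz2 difference was not tested.

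The interaction, which asks whether the genotype difference itself changed with diet, passed for none of the 10 members and for 0.0313% of all genes. All 10 had limma adjusted p = 0.999 and none an unadjusted p under 0.05, which 3.76% of all genes had. The estimates ran from -0.24 for C1qc (95% interval -0.65 to 0.18) to 0.14 for Mrc1 (-0.19 to 0.46).

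What the members did show, as did lists of other macrophage and fibroblast genes, was a wider spread among iKO mice. The SD over 5 mice on the log2 scale was larger in iKO than in WT for 10 of 10 members on HFD and for 10 of 10 on chow. Among all genes this was so for 51.0% on HFD, for 67.8% on chow and for 34.8% on both. The median ratio of the SDs, iKO over WT, was 1.78 on HFD and 2.96 on chow for the members, beside 1.02 on HFD and 1.29 on chow for all genes. This is a description of 10 genes, of which the 8 other than Cd163 and Ccr2 move together, and it was not tested. As coefficients of variation, C1qc had 19.7% in iKO on HFD against 10.8% in WT on HFD. On chow it had 23.9% in iKO and 5.26% in WT. Adgre1 had 26.1% in iKO on HFD against 8.87% in WT on HFD, while on chow it had 22.7% in iKO and 6.33% in WT. Other members differed less. Cd163 had 22.9% in iKO and 21.3% in WT on HFD, and 23.0% in iKO and 19.9% in WT on chow. On HFD, Ccr2 had 18.9% in iKO and 15.9% in WT, and Mrc1 20.1% in iKO and 16.9% in WT. On chow, Cd68 had 25.9% in iKO and 20.6% in WT. Some gene lists described further on were also wider in iKO. The SD of the fibroblast list mean was 0.376 in iKO and 0.165 in WT on HFD, and 0.445 and 0.135 on chow. For other macrophage genes it was 0.152 and 0.0239 on HFD, and 0.199 and 0.059 on chow. For resident macrophage genes it was 0.233 and 0.0555 on HFD, and 0.208 and 0.0451 on chow. Mast cell markers went the other way, at 0.135 and 0.213 on HFD.

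The same mice were high or low for most members. On HFD, RT13 exceeded all 5 WT libraries for 9 members, RT17 for 8 and RT15 for 7, but RT20 for 1 and RT11 for 0. RT11 lay below all 5 WT libraries for 5 members, RT20 for 2 and RT15 for 1, beside 12.8%, 9.5% and 6.68% of all genes in these libraries. On chow, RT7 exceeded all 5 WT libraries for 9 members, RT2 and RT4 for 8 each, RT6 for 2 and RT9 for 1. RT9 lay below all 5 for 4 members, RT6 for 2 and RT2 for 1, beside 19.5%, 20.7% and 14.7% of all genes. Over all genes the shares above all 5 WT libraries were 36.1% in RT13, 39.7% in RT17, 36.5% in RT15, 25.8% in RT20 and 18.1% in RT11. They were 38.2% in RT7, 27.6% in RT2, 50.8% in RT4, 18.7% in RT6 and 19.7% in RT9. The part of the atrial transcripts in RT4 and of the low depth of RT7 in these values was not tested.

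**Figure D3:**
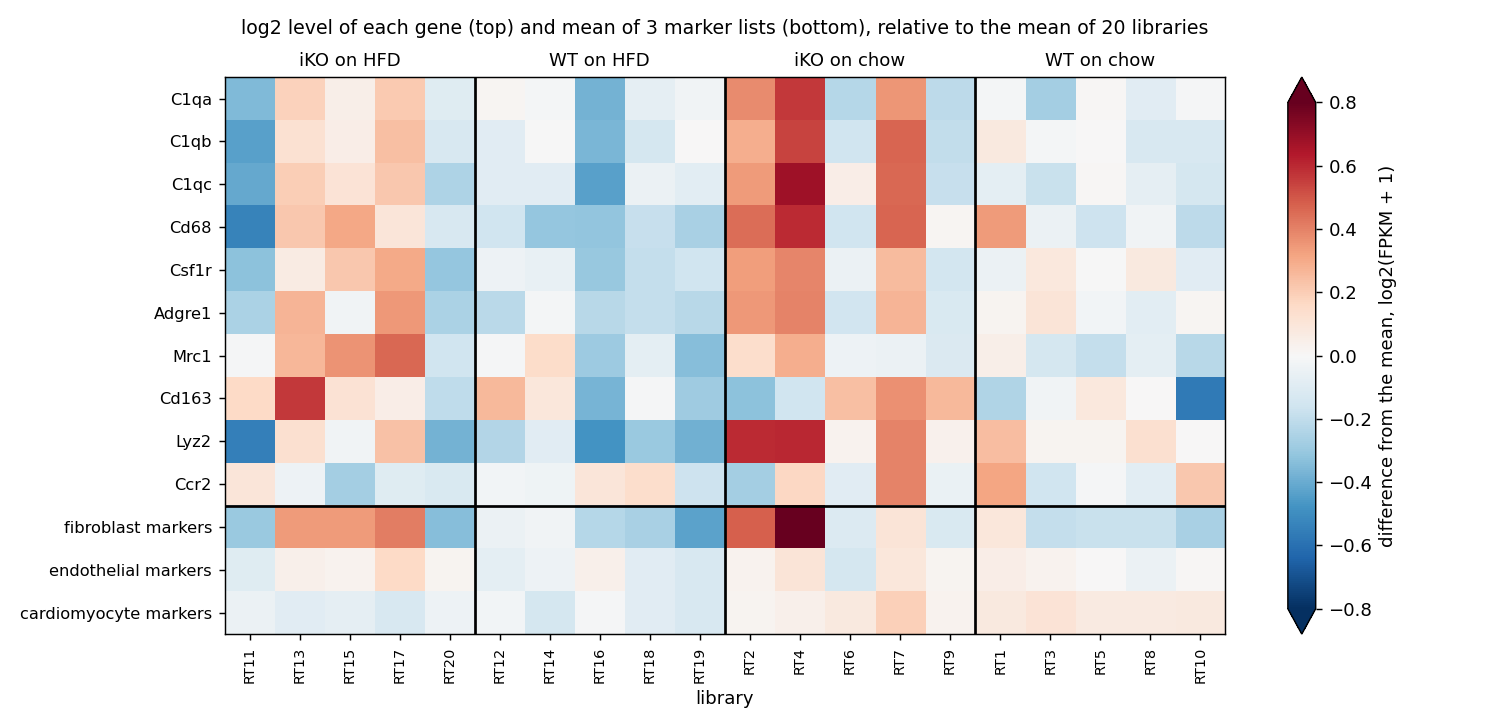
Difference of log2(FPKM + 1) from the mean of the 20 libraries, for each gene and for the mean of 3 marker lists of other cell types (rows), by library (columns). RT13, RT15 and RT17 on HFD and RT2, RT4 and RT7 on chow are high for most of the genes among iKO mice, and Cd163 and Ccr2 follow another order.

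After removal of group means, 28 of the 45 pairs of members were correlated over the 20 libraries (permutation test, two-sided, adjusted p under 0.05 over the 45 pairs, by Pearson r and by Spearman rho). These were the 28 pairs among the 8 members other than Cd163 and Ccr2. Their r ran from 0.61 to 0.93 with a median of 0.83, and from 0.54 to 0.93 without the 2 libraries farthest from the median. The highest raw p among them was 0.00437, adjusted 0.00702, for C1qa with Mrc1. The 3 pairs of C1q chains each had r = 0.93, with rho of 0.85 to 0.87 (permutation p = 1e-05, the smallest these permutations can give, adjusted p = 3e-05). Adgre1 with Lyz2 reached r = 0.91 (rho 0.88), and Csf1r with Lyz2 r = 0.90 (rho 0.87), at the same p. The permutations exchanged all 20 libraries without regard to group. As the members' spread was wider in iKO than in WT, the libraries are not freely exchangeable, and these p-values may be too small. The pooled r also includes the iKO libraries, which fell into a high and a low set.

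None of the 17 pairs that include Cd163 or Ccr2 passed. Their r ran from -0.09 to 0.17 for Cd163 and from -0.17 to 0.14 for Ccr2. In the 10 WT libraries alone 1 of 45 pairs passed by Pearson r, Mrc1 with Lyz2 (r = 0.94, permutation adjusted p = 0.0045), and r among the 8 members had a median of 0.46. By Spearman rho 2 pairs passed, Mrc1 with Lyz2 (rho 0.99) and Csf1r with Cd163 (rho 0.87, permutation adjusted p = 0.0488). There C1qa and C1qc had r = 0.87 (permutation adjusted p = 0.0658), which became 0.15 without the 2 libraries farthest from the median. In WT Csf1r with Cd163 had r = 0.82 (permutation adjusted p = 0.0658). In iKO the libraries' means over the members, relative to their group, fell into 6 at 0.06 to 0.24 and 4 at -0.27 to -0.21, so no r is given for iKO alone. The difference between the genotypes in these correlations was not tested.

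**Figure D4:**
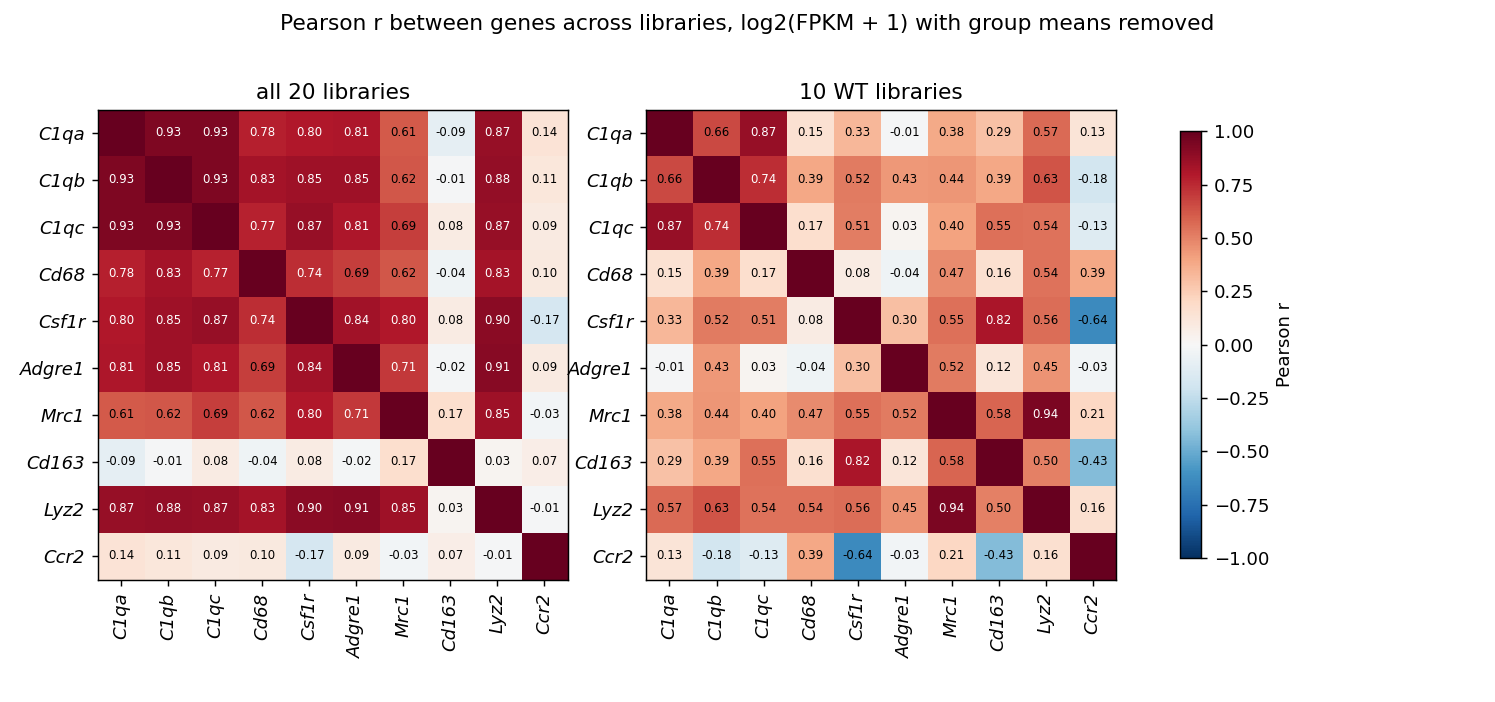
Pearson r between each pair of genes after removal of group means, over all 20 libraries (left) and over the 10 WT libraries (right). The 8 genes other than Cd163 and Ccr2 form a block at left with r of 0.61 to 0.93, while the same pairs at right have a median of 0.46.

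Beyond the members, the genes most like their standardised mean over the 20 libraries were Pmp22 (r = 0.92), a myelin gene also made by fibroblasts, the protease gene Scpep1 (0.91) and the translation factor Eef1a1 (0.90). They were followed by Myoc (0.90), Folr2 (0.90), a folate receptor of resident macrophages, Axl (0.89), a receptor for dying cells, and the Fc receptor Fcgr3 (0.89). The matrix genes Bgn (0.89), Lamc1 (0.89) and Ccdc80 (0.88) completed the 10. The median r of all genes was 0.23, and 18.2% of genes exceeded 0.5, so many genes shared the pattern in part.

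Markers of fibroblasts, the matrix-forming cells of the heart, moved with the members. Over the 20 libraries, with group means removed, the mean of the 10 members and the mean of 11 fibroblast markers had r = 0.86 and rho = 0.83, and r = 0.82 without the 2 libraries farthest from the median. For 10 endothelial markers r was 0.58 (rho 0.60), but -0.28 within the WT libraries. It was -0.13 for 11 cardiomyocyte markers, 0.07 for smooth muscle, 0.06 for neutrophil, -0.20 for mast cell and 0.04 for erythroid markers, and 0.11 for the estimated reads. These are descriptions of 8 relations computed after the values were seen. Each pair of means comes from the same library. Within the WT libraries alone the r with fibroblast markers was 0.73, which did not pass (permutation adjusted p = 0.133). The r over 20 libraries also includes the iKO libraries, which fell into a high and a low set. The part of fibroblast content in the members' spread was not tested.

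**Figure D5:**
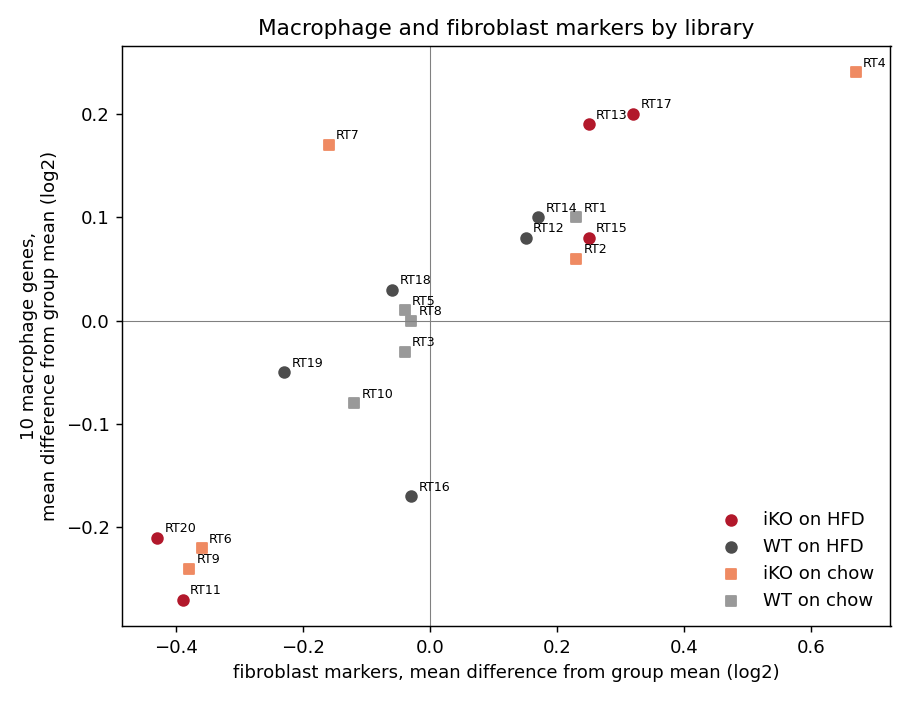
Mean difference from the group mean of log2(FPKM + 1) for 11 fibroblast markers (horizontal axis) and the 10 macrophage genes (vertical axis), 1 point a library. RT4, RT13 and RT17 lie at the upper right and RT6, RT9, RT11 and RT20 at the lower left, and RT7 is high for macrophage genes with fibroblast markers below its group mean.

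In the same libraries the fibroblast markers summed to 694 to 1410 FPKM in iKO on HFD, 704 to 811 in WT on HFD, 762 to 1600 in iKO on chow and 692 to 835 in WT on chow. All 11 were above 0 between genotypes over both diets, with a median log2 fold change of 0.34, beside 76.5% of all genes above 0 and their median of 0.06. The epicardial and fibroblast factor Tcf21 alone passed (0.30, SE 0.09, adjusted p = 0.0436), beside 4.01% of all genes called higher. That call held on leaving out RT1, RT6, RT7, RT9, RT11 or RT16 and was lost on leaving out any 1 of the other 14. It was also lost with no filter, after scaling by the median of ratios, without RT1 and RT4 and without RT4 and RT7. The proteoglycan gene Dcn averaged 376 ± 122 FPKM in iKO on HFD, 258 ± 4.49 in WT on HFD, 387 ± 113 in iKO on chow and 264 ± 20.9 in WT on chow (0.49, adjusted p = 0.0539).

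Among 18 other genes of macrophages at large, none passed between genotypes on either diet or over both, while 16 of 18 were above 0 over both diets with a median of 0.14, beside 76.5% and 0.06 for all genes. Aif1, a cytoskeletal gene of macrophages, averaged 1.97 ± 0.55 FPKM in iKO on HFD, 1.40 ± 0.34 in WT on HFD, 2.17 ± 0.599 in iKO on chow and 1.60 ± 0.406 in WT on chow (0.29, SE 0.10, adjusted p = 0.0916). On HFD taken over both genotypes 4 of the 18 were called lower and none higher, where 23.3% of all genes were called lower, so the share is near that of all genes. Cx3cr1, the fractalkine receptor of resident macrophages and patrolling monocytes, averaged 0.356 ± 0.0607 FPKM in iKO on HFD and 0.480 ± 0.0927 in WT on HFD, against 0.874 ± 0.322 in iKO on chow and 0.778 ± 0.34 in WT on chow. Both HFD means lie under the filter of 0.5 FPKM, which the gene passed mostly through its chow libraries, so its call (-0.35, SE 0.08, adjusted p = 0.00355) supports nothing here. With no filter the adjusted p was 0.0108, and the filter of 1 FPKM left the gene out. The Fc receptor gene Fcgr3 fell by 0.27 (adjusted p = 0.0230) and the oxidase gene Cybb by 0.18 (adjusted p = 0.0246). Neither passed after scaling by the median of ratios, without RT1 and RT4 or without RT4 and RT7, and Fcgr3 did not pass with no filter.

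Of 15 genes of resident macrophages, Gas6, a bridge between dying cells and their receptors, rose between genotypes over both diets (0.16, SE 0.05, adjusted p = 0.0426). It was the 1 gene of the 15 called higher, beside 4.01% of all genes, and none was called lower, beside 1.16%. That call held on leaving out RT1, RT6, RT9, RT11 or RT20 and was lost on leaving out any 1 of the other 15. It was also lost with no filter, with no trend and no robust moderation, without RT1 and RT4, without RT4 and RT7 (0.11) and after scaling by the median of ratios (0.10, adjusted p = 0.155). On HFD over both genotypes Gas6 fell by 0.20 (adjusted p = 0.00342) and the lectin gene Cd209f by 0.32 (adjusted p = 0.0273). These were the 2 genes of the 15 called lower, beside 23.3% of all genes. Neither passed after scaling by the median of ratios, and Cd209f did not pass without RT7, RT10, RT11, RT12 or RT20. Cd209f was also lost with no filter and without RT4 and RT7. The embryo-derived macrophage markers Timd4, Lyve1 and Folr2 stood at 0.04, 0.14 and 0.20 between genotypes and none passed. Of 9 tested monocyte genes, S100a4 fell by 0.41 (adjusted p = 0.0306) and Ly6c1, which endothelium also makes at high level, rose by 0.22 (adjusted p = 0.0128) on HFD over both genotypes, and none passed between genotypes. On HFD 1 of the 9 was thus called lower and 1 higher, beside 23.3% of all genes lower and 2.55% higher. S100a4 did not pass after scaling by the median of ratios, with no filter or without RT1, RT7, RT16 or RT17. It was also lost without RT1 and RT4 and without RT4 and RT7.

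Csf1, the ligand of CSF1R, fell by 0.33 on HFD over both genotypes (SE 0.09, adjusted p = 0.00817), to 8.13 ± 1.95 FPKM in iKO on HFD and 6.61 ± 0.487 in WT on HFD, against 10.2 ± 2.14 in iKO on chow and 8.76 ± 0.551 in WT on chow. The call held in all 27 alternatives. Il34, the other ligand, stood at 0.10 (adjusted p = 0.450). Of 8 tested genes of macrophage growth 3 fell and none rose, and of 10 tested chemokines of monocyte traffic 2 fell and none rose. Ccl2, the ligand of CCR2, fell by 0.60 (SE 0.18, adjusted p = 0.0199), to 1.51 ± 0.727 FPKM in iKO on HFD and 1.21 ± 0.509 in WT on HFD, against 2.44 ± 0.788 in iKO on chow and 2.82 ± 1.65 in WT on chow. It did not pass after scaling by the median of ratios or without RT4 and RT7. Beside these counts stand the 23.3% of all genes called lower. After that scaling Csf1 and the transcription factor gene Bhlhe40 passed among the growth genes and none of the chemokines did. Between genotypes none of the ligands or chemokines passed.

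C1q acts with the proteases C1r and C1s, which fibroblasts make. C1ra averaged 9.46 ± 3.43 FPKM in iKO on HFD, 5.73 ± 0.188 in WT on HFD, 8.71 ± 3.38 in iKO on chow and 5.50 ± 0.447 in WT on chow. C1s1 averaged 19.3 ± 6.4 in iKO on HFD, 12.4 ± 1.16 in WT on HFD, 17.8 ± 4.59 in iKO on chow and 12.8 ± 0.711 in WT on chow. Over both diets C1ra rose by 0.54 (SE 0.15, adjusted p = 0.0476) and C1s1 by 0.48 (SE 0.13, adjusted p = 0.0452) in iKO, while the C1q chains did not pass. Masp1, a protease of the lectin pathway, rose by 0.34 (adjusted p = 0.0489). Each of the 3 calls was lost on leaving out any 1 of 16 libraries, with no filter, after scaling by the median of ratios, without RT1 and RT4 and without RT4 and RT7. C1ra and C1s1 held without RT6, RT9, RT11 or RT20, and Masp1 without RT1, RT9, RT11 or RT14. Masp1 was also lost with a pseudocount of 0.1 and with no trend and no robust moderation. In all, 3 of 13 tested complement genes were higher and none lower, beside 4.01% of all genes higher. On chow alone Masp1 also passed (0.57, adjusted p = 0.0472), where 1.06% of all genes did. This call held on leaving out RT1, RT9, RT11, RT15, RT17, RT18 or RT20 and was lost on leaving out any 1 of the other 13. It was also lost with a pseudocount of 0.1, with no filter, after scaling by the median of ratios and with no trend and no robust moderation. Without RT1 and RT4 and without RT4 and RT7 it was lost too, and its highest adjusted p was 0.296.

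Of 15 tested genes of lipid-associated macrophages, Cd63, a lysosomal membrane gene of many cells, was higher in iKO over both diets (0.29, SE 0.05, adjusted p = 0.00227), at 83.3 ± 7.56 FPKM in iKO on HFD, 65.4 ± 5.49 in WT on HFD, 101 ± 10.8 in iKO on chow and 85.4 ± 5.37 in WT on chow. It passed in all 27 alternatives. The lipid uptake genes Lpl and Cd36, which muscle and endothelium make at high level, were lower in iKO (-0.24 and -0.17, adjusted p = 0.000326 and 0.0215), and Cd36 did not pass with no filter, without RT1 and RT4 or without RT4 and RT7. Trem2, the lipid receptor that defines such macrophages, stood at 0.19 (adjusted p = 0.275). In all, 1 of these 15 genes was called higher and 2 lower, beside 4.01% of all genes higher and 1.16% lower. Of 14 inflammatory genes 6 were abundant enough to test, Il1b and Tnf not among them, and Tnfaip3, a brake on NF-kB, was higher in iKO (0.24, adjusted p = 0.0288), a call lost without RT3, RT4, RT5, RT8, RT13, RT17 or RT18, with no filter, without RT1 and RT4 and without RT4 and RT7. It was the 1 gene of the 6 called higher, beside 4.01% of all genes, and none was called lower.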

How the data were processed

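Left ventricles of 20 mice gave poly(A) RNA-seq libraries (100 nt single reads, about 50 M a sample stated), per the labels' protocols. The FPKM values per gene were deposited by the authors as 1 table per library. The submitters' processing notes name Bowtie2, RSEM, DESeq2 and mm9, with no version. Gene IDs were matched to GENCODE M21 without their version numbers, and GRCm38 positions were taken from it by ID. Among the members the versions differed for Csf1r, Adgre1, Lyz2 and Ccr2. Depth is not in the tables. It was estimated from the steps of low values, of which 58.6% to 70.9% came out whole within 0.05 reads, against 51.1% to 64.8% at the best other depth of the same library (58.6% against 57.4% in RT3). It is therefore an estimate, and no counts were recovered.

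Genes at 0.5 FPKM or above in at least 5 libraries (12775 of 25052) were tested on log2(FPKM + 1) with limma 3.58.1 in R 4.3.3. Group means of all 20 libraries were fitted with trended, robust moderation, and Benjamini-Hochberg adjustment ran over all genes in each contrast, with calls under 0.05. All adjusted p-values of fold changes are from limma, two-sided. The test was also tested on simulated data. Correlations used 100000 permutations, made without regard to group. Permutations and figures ran in Python 3.11.15 with scipy 1.17.1, numpy 2.4.6, matplotlib 3.10.9 and pandas 2.3.3. Replicates are mice.

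The members and gene lists were chosen with earlier results of these data known. All 10 members were tested in every contrast. Of each list the rule was to name up to 3 called genes by smallest p, or the gene with the smallest p. It was not followed for every list and contrast. On HFD over both genotypes 3 of 15 lipid-associated genes were called higher and 3 lower, and 1 of 13 efferocytosis genes each way. Also lower were 2 of 13 complement, 2 of 9 smooth muscle, 1 of 6 inflammatory and 1 of 11 fibroblast genes. Beside these stand 2.55% of all genes higher and 23.3% lower. The 10 genes most like the members' mean are also named. S100a8, Dcn, Il34, Trem2, Timd4, Lyve1, Folr2 and the low-level markers lie outside that rule and were chosen by role after their values were seen. Alternatives were another pseudocount, filter, scaling, moderation and set of groups, and leaving out libraries. Of the tables' per-sample columns, 0 were left unused.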

Additional observations from a re-analysis of the deposited data

Results flagged for a closer look

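A library stood apart from the others of its group by more than Dixon's critical value for 5 samples (0.71) in 3 of the 40 combinations of member and group, all in WT on HFD. Chance flags about 1 in 20 such groups. C1qa was 20.56 FPKM in RT16, below the other 4 libraries, and C1qc was 14.29 FPKM in the same library. Adgre1 was 3.0 FPKM in RT14, above the other 4.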

How the results depend on the processing

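No paired analysis was possible because the groups share no replicate numbers. Lyz2 on HFD over both genotypes passed in all 27 alternatives. Within iKO it passed with a 1-FPKM filter and with no trend and no robust moderation (1 member called in each), and within WT in a fit of those 2 groups alone (1 member called). The cause of the shifts below was not tested. Of all genes the fit called 136 between genotypes on chow and 22 on HFD. It called 1027 between diets in WT, 1279 in iKO, 4 for the interaction, 660 between genotypes over both diets and 3299 between diets over both genotypes.

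With no filter the counts were 7 between genotypes on HFD, 622 between diets in WT, 830 in iKO, 0 for the interaction and 259 between genotypes over both diets. With median-of-ratios scaling they were 332 between diets in WT, 565 in iKO, 0 for the interaction, 379 between genotypes over both diets and 1321 between diets over both genotypes. With no trend and no robust moderation they were 14 between genotypes on HFD and 0 for the interaction. With only the groups compared they were 5 between genotypes on HFD and 710 between diets in iKO. Without RT1 and RT4 they were 87 between genotypes on chow, 839 between diets in iKO, 0 for the interaction and 337 between genotypes over both diets. Without RT4 and RT7 they were 74, 509, 0 and 230 in that order.

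Median-of-ratios scaling also moved the split of higher and lower calls, to 19 and 124 from 44 and 92 between genotypes on chow, to 8 and 17 from 13 and 9 on HFD, to 180 and 152 from 98 and 929 between diets in WT, and to 324 and 241 from 211 and 1068 in iKO. The median of all genes moved by under 0.1 in each contrast, and between diets it came close to 0. It went from -0.084 to -0.00049 in WT, from -0.072 to -0.0023 in iKO and from -0.079 to -0.0024 over both genotypes. Some members' diet differences over both genotypes were of like size, such as -0.084 for Ccr2 and -0.098 for C1qa.

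Leaving out 1 library gave 92 to 151 genes between genotypes on chow, 6 to 39 on HFD, 623 to 1182 between diets in WT, 872 to 1475 in iKO, 0 to 5 for the interaction, 336 to 1042 between genotypes and 2752 to 3513 between diets over both levels of the other factor. Members called ranged from 0 to 2 between diets in iKO, 1 to 2 between diets over both genotypes and 0 to 1 between genotypes over both diets. C1qc passed between diets in iKO without RT9.

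Of the members' log2 fold changes, none that passed changed sign. Between diets in WT, Mrc1 became -0.001 with a pseudocount of 0.1, and with median-of-ratios scaling C1qa became 0.081, C1qb 0.022, C1qc 0.043 and Ccr2 0.005. Without RT1 and RT4, Ccr2 became 0.006 between genotypes on chow and 0.014 between diets in WT, and the interaction of Csf1r 0.06. Without RT4 and RT7, C1qa became 0.017 and Ccr2 0.052 between diets in iKO, Ccr2 0.001 between diets over both genotypes, and the interaction 0.039 for C1qa, 0.073 for C1qb, 0.112 for Cd68, 0.099 for Csf1r, 0.043 for Lyz2 and 0.103 for Ccr2. Leaving out 1 library, Ccr2 ran from -0.117 to 0.05 between genotypes on chow. Between diets in WT, Ccr2 ran from -0.104 to 0.014, Mrc1 from -0.065 to 0.058, Cd163 from -0.018 to 0.164, C1qa from -0.071 to 0.048 and C1qc from -0.083 to 0.013. Cd163 ran from -0.044 to 0.148 between diets in iKO. The interaction ran from -0.091 to 0.067 for Csf1r, -0.168 to 0.072 for Cd68, -0.035 to 0.116 for Adgre1, -0.13 to 0.081 for Cd163, -0.141 to 0.027 for Ccr2 and -0.157 to 0.038 for Lyz2. Depth limits Cd68 and Ccr2 most, the members with the fewest estimated reads.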

Other observations

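Markers of the other cells of the ventricle were read in the same libraries. On HFD over both genotypes 7 of 11 cardiomyocyte markers fell and none rose (median -0.19, limma), where 23.3% of all genes were called lower and the median of all genes was -0.08. After scaling by the median of ratios Tnni3, Pln, Ckm and Myh6 did not pass, and Myl3, Myl2 and Tnnt2 did. The light chain genes Myl3 and Myl2 fell by 0.38 (SE 0.04, adjusted p = 1.61e-07) and 0.34 (SE 0.04, adjusted p = 3.63e-06), and Tnnt2, the gene of cardiac troponin T, by 0.28 (SE 0.04, adjusted p = 3.9e-05). Between genotypes none of the 11 passed (median -0.01).

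Clec9a, a receptor of cross-presenting dendritic cells, rose on HFD by 0.25 (SE 0.04, adjusted p = 0.000445). It averaged 1.04 ± 0.106 FPKM in iKO on HFD and 1.09 ± 0.0903 in WT on HFD, against 0.766 ± 0.119 in iKO on chow and 0.708 ± 0.102 in WT on chow, and its call held in all 27 alternatives. It was the 1 called of 3 tested dendritic cell markers, beside 2.55% of all genes called higher, while Flt3 and Xcr1 reached at most 0.12 and 0.17 FPKM. Of 10 endothelial markers Fabp4, a fatty acid carrier, rose on HFD (0.26, adjusted p = 0.00298) and none was called lower, beside 2.55% of all genes higher and 23.3% lower. Of 5 tested mast cell and 5 tested erythroid markers none passed in either comparison.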
